A study of Mus musculus with 6 samples.

Results

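The G1 cyclins and the inhibitors of cyclin-dependent kinases (CDKs) set how readily a cell leaves G1, the phase before DNA is copied. Here 10 of these genes were taken by name from the 57132 genes of the count table, namely the D-type cyclins Ccnd1, Ccnd2 and Ccnd3, the E-type cyclin Ccne2, the CIP/KIP inhibitors Cdkn1a, Cdkn1b and Cdkn1c, and the INK4 inhibitors Cdkn2a, Cdkn2b and Cdkn2c. In the count table they are Ccnd1 (ENSMUSG00000070348.6, chromosome 7), Ccnd2 (ENSMUSG00000000184.13, chromosome 6), Ccnd3 (ENSMUSG00000034165.17, chromosome 17), Ccne2 (ENSMUSG00000028212.17, chromosome 4), Cdkn1a (ENSMUSG00000023067.15, chromosome 17), Cdkn1b (ENSMUSG00000003031.15, chromosome 6), Cdkn1c (ENSMUSG00000037664.14, chromosome 7), Cdkn2a (ENSMUSG00000044303.7, chromosome 4), Cdkn2b (ENSMUSG00000073802.6, chromosome 4) and Cdkn2c (ENSMUSG00000028551.15, chromosome 4). All 10 passed the filter on low counts and belong to the 16263 genes tested. D-type cyclins bind CDK4 and CDK6, and E-type cyclins bind CDK2. Both complexes phosphorylate the retinoblastoma (RB) proteins, which releases E2F transcription factors to switch on S phase genes. INK4 inhibitors block CDK4 and CDK6, whereas CIP/KIP inhibitors bind whole cyclin-CDK complexes. Mature podocytes, the filtering epithelial cells of the glomerulus, are known as non-dividing cells that hold CDK inhibitors.

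RNA was sequenced from 3 samples of WT podocytes (Col4a3+/+) and 3 samples of AS podocytes (Col4a3-/-, a model of Alport Syndrome), all untreated and, per the labels, from male mice of 8 weeks. Both lines were immortalized with the H-2Kb-tsA58 transgene, a temperature-sensitive SV40 large T antigen under an interferon-inducible promoter. Large T antigen is known to bind RB and p53, the proteins through which many of these genes act, and its own RNA was not analysed here. Per the labels, cells of both groups grew at 33 °C with 20 U/mL interferon gamma and were differentiated for 14 days at 37 °C. The paper gives a shorter differentiation and a lower interferon dose. Each genotype was 1 cell line, so that genotype and line cannot be told apart, and the labels do not say whether the samples of a line were separate cultures. The paper's statistics section says in general that the experiments analysed were independent, without naming the sequenced samples. The p-values measure only the spread between these samples, which may be technical.

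The libraries held 45417221 to 54290968 counts. Col4a3, the gene knocked out in the AS line, was at 938 to 1272 CPM in WT and 61.2 to 82.9 CPM in AS samples (adjusted p = 1.31e-07, edgeR). CPM is the count relative to the library size, which was scaled by TMM, a correction for differences in RNA make-up. WT replicate 1 stood apart from the other 2 WT samples, with a chi-square of counts per degree of freedom of 43.0 and 45.2 against them, while WT replicates 2 and 3 differed by 9.06. Of 10 podocyte markers, 8 passed the filter, 1 was called higher and 6 lower in AS samples, and their sum was 1725 to 1897 CPM in WT and 1293 to 1379 CPM in AS samples. Nphs1, which codes for nephrin of the slit diaphragm, stayed under 0.5 CPM. The summed markers of parietal epithelial cells (6 genes, 5 past the filter) were at 643 to 672 CPM in WT and 503 to 533 CPM in AS samples. Those of mesangial cells (5 genes, 4 past the filter) were at 248 to 276 CPM and 124 to 126 CPM, mostly Pdgfrb. Those of tubular cells (6 genes, 3 past the filter, Aqp2 and Umod at 0) were at 251 to 313 CPM and 203 to 312 CPM, mostly Lrp2. Endothelial markers (5 genes, 1 past the filter) summed to at most 1.35 CPM in any library and leukocyte markers (5 genes, 2 past the filter, Adgre1 and Cd3e at 0) to at most 3.14 CPM. The part of these markers in the results was not tested.

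AS podocytes differed from WT podocytes in 8 of the 10 genes. The D-type cyclins Ccnd2 and Ccnd3, the E-type cyclin Ccne2 and the inhibitor Cdkn2c fell, while the inhibitors Cdkn1b, Cdkn1c, Cdkn2a and Cdkn2b rose. Ccnd1 and Cdkn1a did not pass the test. Calls were made with the two-sided quasi-likelihood test of edgeR at an adjusted p under 0.05. Among all genes tested 40.1% were called, 20.4% higher and 19.6% lower in AS podocytes. The 3 WT and the 3 AS values did not overlap in the same 8 genes, against 52.3% of all genes tested. The median log2 fold change was 0.06 over the 10 genes and 0.01 over all genes tested, and the median absolute log2 fold change was 0.47 and 0.29. Without AS replicate 1 only 2 genes were called higher, since Cdkn1c and Cdkn2a lost their call.

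**Figure D1:**
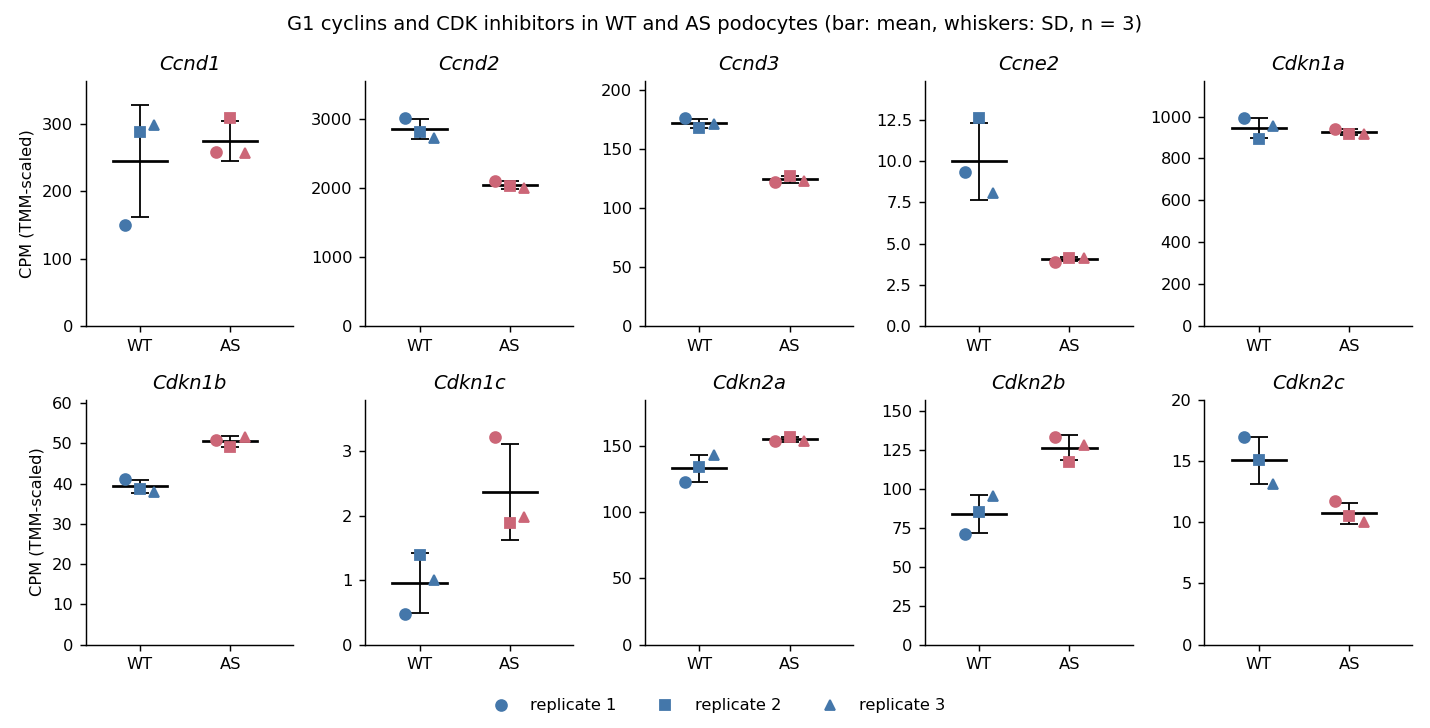
CPM (y axis, from 0) of the 10 genes in the 3 WT and 3 AS samples, with a bar for the mean and whiskers for the SD of each group and a symbol for each replicate number. The groups do not overlap except for Ccnd1, where WT replicate 1 lies at 149 CPM, and Cdkn1a.

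Levels between genes were compared per kb of exon. In WT podocytes Ccnd2 had the highest level (302 ± 15.4 CPM per kb, SD, n = 3), followed by Cdkn1a (266 ± 13.7), Cdkn2a (114 ± 8.70), Cdkn2b (60.4 ± 8.86), Ccnd1 (52.1 ± 17.7), Ccnd3 (19.6 ± 0.474), Cdkn1b (8.63 ± 0.363), Cdkn2c (5.61 ± 0.720), Ccne2 (2.86 ± 0.668) and Cdkn1c (0.467 ± 0.225). Only Cdkn2b and Ccnd1 overlapped among neighbours in this order. In AS podocytes Cdkn1a stood above Ccnd2, at 261 ± 3.57 and 217 ± 5.56 CPM per kb (SD, n = 3 each), and the order below them was that of WT podocytes. The lead of Ccnd2 in WT podocytes depends on the length used. All exons together span 9409 bases for Ccnd2 and 3553 for Cdkn1a, the longest transcripts 6330 and 2080. With the longest transcript as length, Cdkn1a would not lie below Ccnd2 in WT podocytes. Ccne2 (1.16 ± 0.0375) and Cdkn1c (1.16 ± 0.365) overlapped in AS podocytes. Ccnd2 and Cdkn1a both lay at the 97th percentile of all genes tested by their mean level per kb, and Cdkn1c at the 25.5th.

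Ccnd2, the main D-type cyclin of these cells, was at 3004, 2808 and 2720 CPM in the WT samples and 2094, 2033 and 1991 CPM in the AS samples. All 3 AS samples were lower than all 3 WT samples. The log2 fold change was -0.48 (standard error of the log2 value, SE, 0.07, adjusted p = 0.000566, edgeR), a level 0.717 times that of WT. Ccnd2 lies on chromosome 6, whose tested genes had a median log2 fold change of -0.20, and the difference from that median was -0.28. Ccnd3 was at 176, 168 and 172 CPM in WT and 123, 128 and 123 CPM in AS samples. The groups were apart here too, with a spread of a few CPM in each. Its log2 fold change was -0.47 (SE 0.05, adjusted p = 0.000105, edgeR), and the median of its chromosome, 17, was 0.00.

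Ccnd1, the D-type cyclin best known as a target of growth factor signals, was at 149, 288 and 299 CPM in WT and 258, 308 and 256 CPM in AS samples. WT replicate 1 was low, and the other WT samples lay among the AS samples. The log2 fold change was 0.16 (SE 0.22, adjusted p = 0.600, edgeR; approximate 95% interval -0.27 to 0.58), and it was -0.10 without WT replicate 1. The interval spans changes in either direction, so that these samples did not settle whether Ccnd1 rose or fell.

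The make-up of the D-type cyclins does not depend on library scaling. The share of Ccnd2 in the summed level per kb of the 3 cyclins was 86.0, 78.8 and 77.7% in WT and 76.4, 73.0 and 75.6% in AS samples, and that of Ccnd1 was 8.54, 16.1 and 17.1% in WT and 18.8, 22.1 and 19.4% in AS samples. The share of Ccnd3 was 5.05 to 5.41% in WT and 4.79 to 5.00% in AS samples. Each AS sample lay below each WT sample for Ccnd2 and Ccnd3 and above for Ccnd1, with mean differences of -5.86, -0.337 and 6.19 percentage points. An exact permutation test of 3 against 3, two-sided, gave p = 0.1 for each, the smallest it allows (10 shares in 3 families were tested, and p adjusted over them is 0.1 as well). Without WT replicate 1 the differences for Ccnd2 and Ccnd1 were -3.26 and 3.51 points. The sum of the 3 cyclins was 374 ± 4.14 CPM per kb in WT and 289 ± 8.26 CPM per kb in AS podocytes (SD, n = 3 each), with no overlap of the samples.

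**Figure D2:**
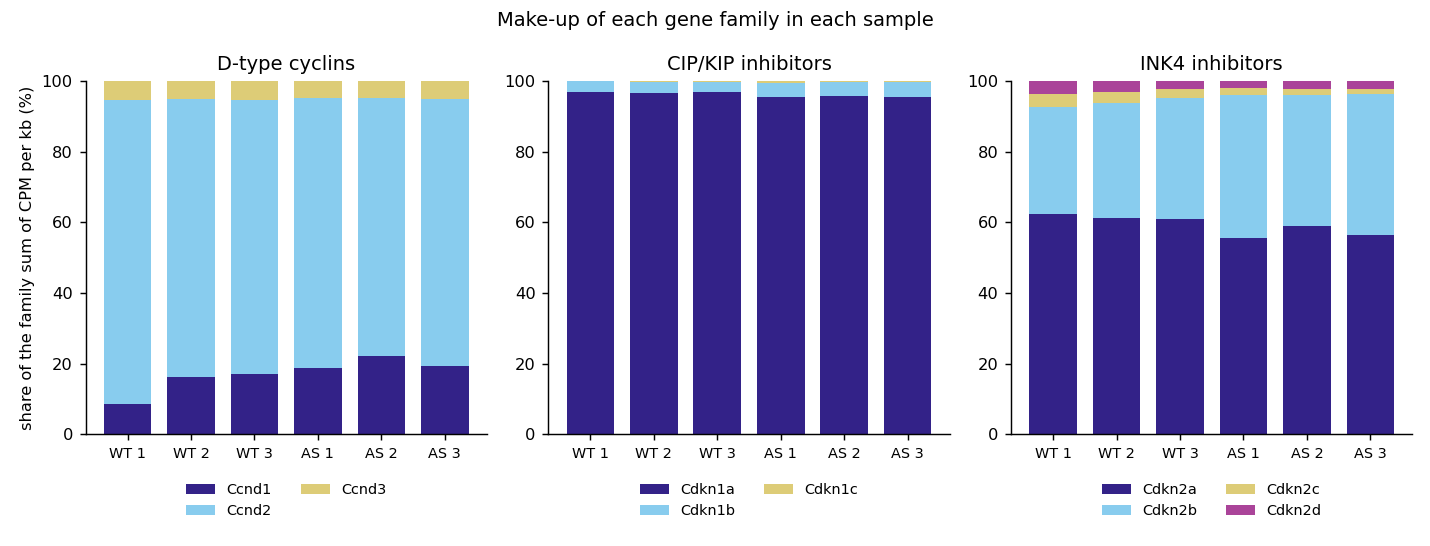
Share (y axis, in %) of each gene in the summed CPM per kb of the D-type cyclins, the CIP/KIP inhibitors and the INK4 inhibitors, with 1 bar per sample. The INK4 inhibitors include Cdkn2d. Ccnd2, Cdkn1a and Cdkn2a hold most of their family in all 6 samples, and the share of Cdkn2b is 30.3 to 34.3% in WT and 37.1 to 40.5% in AS samples.

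The kinases that the G1 cyclins bind were measured in the same libraries. Cdk4 was at 192, 188 and 175 CPM in WT and 228, 243 and 236 CPM in AS samples, a log2 fold change of 0.35 (adjusted p = 0.00134, edgeR). Cdk2, the partner of E-type cyclins, was at 16.8, 19.9 and 15.1 CPM in WT and 26.4, 25.6 and 29.1 CPM in AS samples, a log2 fold change of 0.65 (adjusted p = 0.00112, edgeR). Both kinases rose with no overlap of the groups. Both lie on chromosome 10, whose tested genes had a median log2 fold change of 0.31. Cdk6 was at 411 CPM on average in WT samples and did not pass the test (log2 fold change 0.21, adjusted p = 0.0978, edgeR).

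Ccne2, the E-type cyclin among the 10 genes, was at 9.33, 12.6 and 8.08 CPM in the WT samples and 3.91, 4.12 and 4.14 CPM in the AS samples. The WT samples varied, while the AS samples were alike and all lower. Its log2 fold change of -1.30 (SE 0.17, adjusted p = 0.000309, edgeR) was the largest decrease of the 10 genes, a level 0.406 times that of WT, and 8.97% of all genes tested had a larger absolute log2 fold change. The median of chromosome 4, which holds Ccne2, was -0.17. Exons of Ccne2 overlap those of Ints8 on the other strand, which had 8160 counts in WT and 6897 counts in AS samples against 1436 and 616 for Ccne2, and the sources used here do not give the strand setting of the counting. Ccne1, the other E-type cyclin, fell as well. It was at 11.4, 12.4 and 10.2 CPM in WT and 6.37, 6.58 and 6.60 CPM in AS samples, a log2 fold change of -0.80 (adjusted p = 0.000472, edgeR).

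Genes that E2F factors switch on at the start of S phase were lower in AS podocytes. Of 18 such genes, all of them tested, 15 fell and 1 rose, with a median log2 fold change of -0.59 against 0.01 for all genes tested. Among all genes tested 19.6% were called lower and 20.4% higher. Rrm1, a subunit of ribonucleotide reductase, had a log2 fold change of -0.48 (adjusted p = 0.000673, edgeR), and Mcm2, part of the replicative helicase, of -0.59 (adjusted p = 0.00335, edgeR). Mcm7, of the same helicase, was the gene that rose, at 0.22 (adjusted p = 0.0388, edgeR). It lies on chromosome 5, whose tested genes had a median log2 fold change of 0.19. Without AS replicate 2 the list had 10 calls in place of 16.

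Markers of dividing cells moved with the E-type cyclins. Of 10 such genes 9 fell, against 19.6% of all genes tested, the 1 gene without a call being Aurka, at -0.57 (adjusted p = 0.0623, edgeR). Their sum was 212, 220 and 134 CPM in WT and 103, 103 and 112 CPM in AS samples. WT replicate 3 lay closest to the AS samples in this sum, and it also had the lowest Ccne2 and Ccne1 of the WT samples. Mki67, which marks cycling cells, was at 64.1, 65.8 and 37.2 CPM in WT and 28.2, 25.9 and 30.5 CPM in AS samples. In bulk RNA, fewer dividing cells and less RNA of these genes per cell cannot be told apart, and the part of the dividing cells in the Ccne2 result was not tested.

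**Figure D3:**
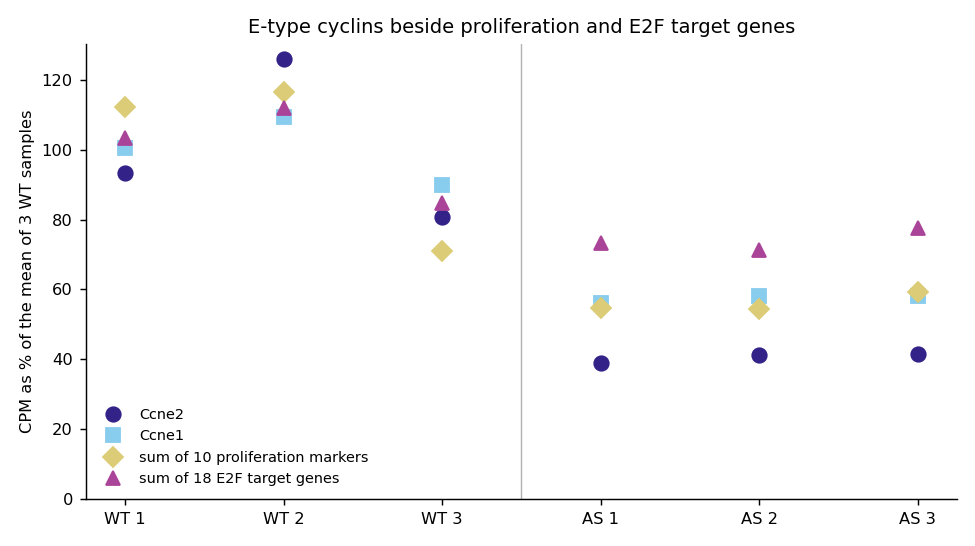
Ccne2, Ccne1, the sum of 10 proliferation markers and the sum of 18 E2F target genes in each sample, as percent of the mean of the 3 WT samples (y axis, from 0). WT replicate 3 is the lowest WT sample in all 4 and the AS samples lie lower still, with Ccne2 at 39.0 to 41.4%.

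RB proteins and E2F factors link the cyclins to these targets. Of 13 genes for pocket proteins, E2F factors and their DP partners, 6 fell, 3 rose and 4 did not pass the test, with a median log2 fold change of -0.29. The shares over all genes tested were 19.6% lower and 20.4% higher. E2f8 had a log2 fold change of -1.24 (adjusted p = 0.00145, edgeR), E2f1 of -0.41 (adjusted p = 0.00196, edgeR) and E2f3 of -0.34 (adjusted p = 0.00241, edgeR). E2f1 and E2f3 code for activators, and E2f8 for a repressor that E2F factors themselves induce. The 3 genes that rose, Rbl2, E2f4 and Tfdp1, all lie on chromosome 8, whose tested genes had a median log2 fold change of 0.31. Rb1 was at 87.1 CPM on average in WT samples and its log2 fold change of 0.08 did not pass (adjusted p = 0.224, edgeR).

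**Figure D4:**
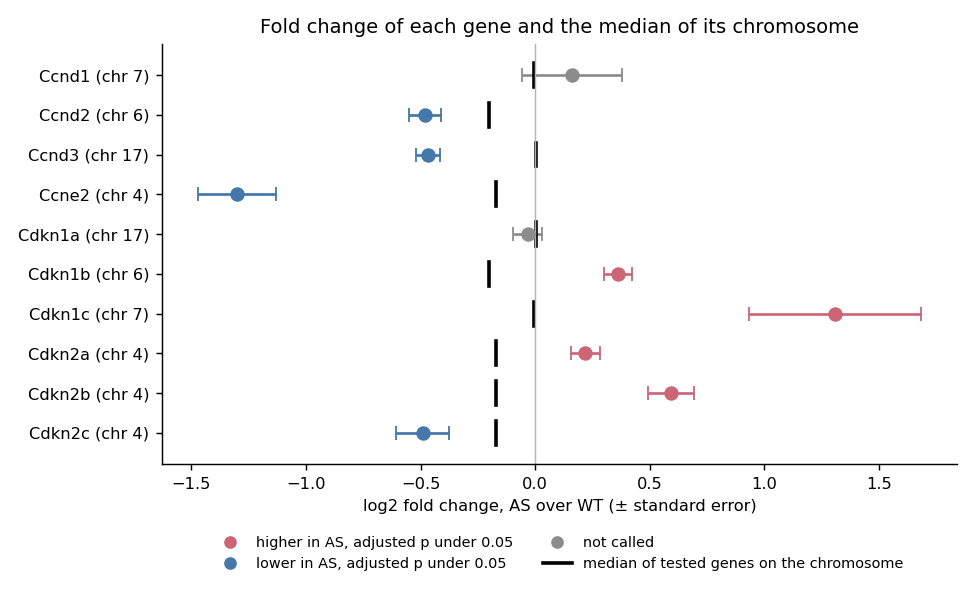
Log2 fold change of AS over WT (x axis) for the 10 genes, with whiskers for the standard error and a black tick for the median of the tested genes on the same chromosome. Cdkn1b, Cdkn2a and Cdkn2b lie above 0 and the medians of their chromosomes below it, and Ccnd2, Ccne2 and Cdkn2c lie on the same side of 0 as those medians.

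Cdkn1a, which codes for p21, a p53 target and an inhibitor of cyclin-CDK complexes, was at 991, 895 and 954 CPM in WT and 940, 919 and 918 CPM in AS samples. The AS samples lay within the range of the WT samples. The log2 fold change was -0.03 (SE 0.06, adjusted p = 0.721, edgeR), with an approximate 95% interval of -0.16 to 0.09. Trp53, the p53 gene, did not pass either, at -0.09 (adjusted p = 0.195, edgeR; chosen after its value was seen). Cdkn1b, which codes for p27, an inhibitor tied to cell cycle exit, was at 41.2, 38.7 and 38.0 CPM in WT and 50.7, 49.0 and 51.6 CPM in AS samples. The groups were well apart for the spread within each. Its log2 fold change of 0.36 (SE 0.06, adjusted p = 0.00125, edgeR) stood against a chromosome median of -0.20, and relative to it the value was 0.56.

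Cdkn1c codes for p57, an imprinted inhibitor known from differentiated podocytes. It was near the lower end of detection, with 24 to 145 counts per library, or 0.473, 1.39 and 0.997 CPM in WT and 3.22, 1.89 and 1.98 CPM in AS samples. AS replicate 1 was the highest and WT replicate 1 the lowest, and the groups did not overlap. The log2 fold change of 1.31 (SE 0.37, adjusted p = 0.0202, edgeR) was the largest increase of the 10 genes, and without AS replicate 1 it was 1.02 (adjusted p = 0.0794, edgeR). Cdkn1a held 95.4 to 96.8% of the summed CIP/KIP level per kb in every sample. The share of Cdkn1b was 3.01 to 3.26% in WT and 3.99 to 4.19% in AS samples, and that of Cdkn1c 0.0805 to 0.261% and 0.342 to 0.569% (exact permutation test, two-sided, p = 0.1 for each). The summed CIP/KIP level was 276 ± 13.7 and 273 ± 3.99 CPM per kb (SD, n = 3 each), a difference within the spread of the samples (exact permutation test, two-sided, p = 0.7).

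Of 7 further genes listed from the imprinted region on chromosome 7 around Cdkn1c, 4 were tested and 2 rose. The share called higher over all genes tested was 20.4%. Kcnq1ot1, a paternally expressed long noncoding RNA of this region, was at 3.87, 3.03 and 2.93 CPM in WT and 7.15, 5.39 and 6.56 CPM in AS samples, a log2 fold change of 0.96 (adjusted p = 0.00180, edgeR). It is antisense to Kcnq1, and without strand the reads of both cannot be told apart, although Kcnq1 had only 13 counts in all. Slc22a18, the next tested gene beside Cdkn1c, was also low, with 430 counts in all. It was at 0.907, 1.26 and 0.715 CPM in WT and 2.22, 1.75 and 1.85 CPM in AS samples, a log2 fold change of 1.01 (adjusted p = 0.0130, edgeR). Tssc4 on the other side (-0.02) and Cd81 (-0.01) did not pass (adjusted p = 0.883 and 0.901, edgeR). Neither did Trpm5, beyond Tssc4, at -0.77 and Nap1l4, beyond Slc22a18, at -0.07 (adjusted p = 0.443 and 0.297, edgeR). Kcnq1, Phlda2 and Ascl2 were below the filter, with 13, 1 and 25 counts over the 6 libraries.

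Cdkn2b, which codes for p15, an INK4 inhibitor that TGF-beta is known to induce, was at 71.0, 85.3 and 95.5 CPM in the WT samples and 134, 118 and 128 CPM in the AS samples. All AS samples were higher, and the WT samples varied more. The log2 fold change was 0.59 (SE 0.10, adjusted p = 0.00134, edgeR), a level 1.51 times that of WT. Cdkn2a lies beside it and codes for both p16 and the p53 activator Arf, which counts per gene do not separate. It was at 123, 134 and 143 CPM in WT and 154, 157 and 154 CPM in AS samples. The AS samples were nearly equal and lay above the WT samples. The log2 fold change of 0.22 (SE 0.06, adjusted p = 0.0218, edgeR) lost its call without WT replicate 2 or without any 1 of the AS samples (adjusted p up to 0.0734, edgeR). Both genes lie on chromosome 4, and relative to its median of -0.17 they were at 0.76 and 0.39. Cdkn2c, which codes for p18 and is itself a known E2F target, was at 17.0, 15.1 and 13.1 CPM in WT and 11.7, 10.5 and 9.99 CPM in AS samples. It fell with a log2 fold change of -0.49 (SE 0.12, adjusted p = 0.00844, edgeR), and relative to the same chromosome the value was -0.32. Cdkn2d, the remaining INK4 gene, was at 8.76 CPM on average in WT samples and did not pass (-0.14, adjusted p = 0.413, edgeR).

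Shares within the INK4 family were taken of the summed level per kb of Cdkn2a, Cdkn2b, Cdkn2c and Cdkn2d. Counts of Cdkn2a do not separate p16 from Arf, so that the sum and the shares do not measure INK4 RNA alone. The share of Cdkn2b was 30.3, 32.8 and 34.3% in WT and 40.5, 37.1 and 39.7% in AS samples. That of Cdkn2a was 62.3, 61.2 and 61.0% in WT and 55.6, 58.9 and 56.5% in AS samples. Cdkn2b thus took a larger share and Cdkn2a a smaller one in every AS sample, although both genes were called higher (exact permutation test, two-sided, p = 0.1 for each, the smallest it allows). The share of Cdkn2c was 2.43 to 3.75% in WT and 1.60 to 1.84% in AS samples, and that of Cdkn2d 2.35 to 3.67% and 2.02 to 2.29%. The summed INK4 level was 185 ± 16.1 CPM per kb in WT and 233 ± 4.56 CPM per kb in AS podocytes (SD, n = 3 each), with no overlap.

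The nearest tested genes on either side of Cdkn2a and Cdkn2b were called lower, beside a median of -0.17 for chromosome 4. Mtap, the next tested gene on one side and a gene of methionine salvage, had a log2 fold change of -0.26 (adjusted p = 0.00409, edgeR), and Elavl2 on the other side of -1.56 (adjusted p = 0.0187, edgeR; 209 counts in all). Klhl9, beyond Mtap, was at -0.13 (adjusted p = 0.150, edgeR), and Gm12666, beyond Elavl2, at -0.05 (adjusted p = 0.899, edgeR). Dmrta1 had 21 counts in all and was not tested. Neighbours of the other genes moved in either direction. Tigar beside Ccnd2 was at -0.30 (adjusted p = 0.0126, edgeR), Bysl, whose exons overlap Ccnd3 on the other strand, at -0.21 (adjusted p = 0.0399, edgeR), and Rnf11 beside Cdkn2c at -0.44 (adjusted p = 0.000619, edgeR). Ints8, which overlaps Ccne2, and Dpy19l4 beyond it were at -0.33 and -0.32 (adjusted p = 0.00586 and 0.00345, edgeR). Cracr2a near Ccnd2 (-1.98), AI661453 near Ccnd3 (-3.37), Crebl2 near Cdkn1b (-0.38) and Ppil1 near Cdkn1a (-0.35) were called lower as well. Dmrta2, on the other side of Cdkn2c, was at 3.90 (adjusted p = 0.000190, edgeR), and Ano1 and Mrgprf, on either side of Ccnd1, were at 0.81 and 2.10 (adjusted p = 0.000176 and 0.0176, edgeR). The nearest tested genes on both sides of Cdkn1a, of Cdkn1b and of Ccnd1 did not pass the test.

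Promoter sequences were at hand for 6 of the 10 genes in the RefSeq table (build GRCm38.p6), as 10 windows from 250 bases before to 50 bases after a transcription start. Ccnd1, Ccnd2, Ccne2 and Cdkn1c have no entry there. The upstream 250 bases of the inhibitors that rose are shown 5′ to 3′ on the gene's strand, because Cdkn2a has 2 starts whose transcripts share 1 count. Capitals mark the CCAAT letters, the only searched motif found in them. Cdkn2b lies at chr4:89311033-89311282 (minus strand). The start of Cdkn2a farther upstream, that of Arf, lies at chr4:89294620-89294869 and the start of p16 at chr4:89282193-89282442 (both minus strand). Cdkn1b lies at chr6:134920151-134920400 (plus strand).
Cdkn2b: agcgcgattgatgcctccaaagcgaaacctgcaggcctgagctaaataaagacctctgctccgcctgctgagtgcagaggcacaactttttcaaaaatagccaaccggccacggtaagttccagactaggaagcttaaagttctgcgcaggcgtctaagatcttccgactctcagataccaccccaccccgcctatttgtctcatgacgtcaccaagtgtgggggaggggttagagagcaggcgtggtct
Cdkn2a, Arf start: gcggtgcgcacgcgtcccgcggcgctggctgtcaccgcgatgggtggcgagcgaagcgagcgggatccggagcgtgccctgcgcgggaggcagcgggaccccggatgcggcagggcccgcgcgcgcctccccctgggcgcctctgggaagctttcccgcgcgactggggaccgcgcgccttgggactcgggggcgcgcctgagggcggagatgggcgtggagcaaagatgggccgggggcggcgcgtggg
Cdkn2a, p16 start: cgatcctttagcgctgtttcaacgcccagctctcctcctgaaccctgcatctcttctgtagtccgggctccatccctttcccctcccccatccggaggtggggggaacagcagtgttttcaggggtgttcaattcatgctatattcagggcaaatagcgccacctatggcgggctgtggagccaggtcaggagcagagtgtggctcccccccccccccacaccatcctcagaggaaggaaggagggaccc
Cdkn1b: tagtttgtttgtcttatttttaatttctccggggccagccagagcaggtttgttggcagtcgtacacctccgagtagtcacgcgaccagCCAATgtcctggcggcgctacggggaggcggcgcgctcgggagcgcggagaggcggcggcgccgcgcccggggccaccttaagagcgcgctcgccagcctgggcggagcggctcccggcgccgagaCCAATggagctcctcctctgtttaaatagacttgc

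The Arf start was rich in G and C, at 78.4% with 40 CpG, whereas the p16 start had 60.0% with 7 CpG and Cdkn2b had 53.6% with 12 CpG. The median over all windows of the table was 52.4% with 6 CpG. The search covered TTTCGCGC and TTTGGCGC, which are forms of the E2F motif, CACGTG, an E-box, and CCAAT, on both strands and as exact letters. Over the windows of 300 bases, CCAAT was found in 4 of the 10 windows of these genes, 3 times in that of Cdkn1b, and in 37.4% of all 32851 windows. CACGTG was found in 1 window, that of the start of Cdkn2c farther downstream, and in 7.15% of all windows. Neither E2F form was found in any of the 10 windows, and 0.813% of all windows held one. A match is a description of the letters only.

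Regulators known to act on these genes were measured beside them. Of 20 transcription factor genes, 5 rose, 4 fell and 11 did not pass, with a median log2 fold change of 0.06, which is close to the background of 20.4% higher and 19.6% lower over all genes tested. Foxm1, which drives genes of mitosis, fell by 1.00 on the log2 scale (adjusted p = 7.13e-05, edgeR). Foxo3, a known activator of Cdkn1b, rose with a log2 fold change of 0.79 (adjusted p = 9.74e-05, edgeR) on chromosome 10, whose median was 0.31. Mxd4, an antagonist of MYC, rose with 0.47 (adjusted p = 0.000144, edgeR) on chromosome 5, whose median was 0.19. Mxd1, of the same family, fell with -0.51 (adjusted p = 0.000449, edgeR) on chromosome 6, whose median was -0.20. Myc itself rose with 0.51 (adjusted p = 0.00491, edgeR) and Mycn fell with -0.79 (adjusted p = 0.000823, edgeR). Mxd1, Myc and Mycn were chosen after their values were seen. Of 10 genes for Polycomb proteins, known for silencing the Cdkn2a and Cdkn2b locus, and for related histone demethylases, among them Kdm6b, known to oppose that silencing, 3 rose and 7 did not pass. This is no larger a share than the 40.1% called over all genes tested. Those that rose were Kdm2b at 0.40 (adjusted p = 0.000704, edgeR), Cbx7 at 0.69 (adjusted p = 0.00654, edgeR) and Rnf2 at 0.25 (adjusted p = 0.0145, edgeR). Kdm2b and Cbx7 lie on chromosomes 5 and 15, with medians of 0.19 and 0.20. Without WT replicate 1 the list had 5 calls.

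**Figure D5:**
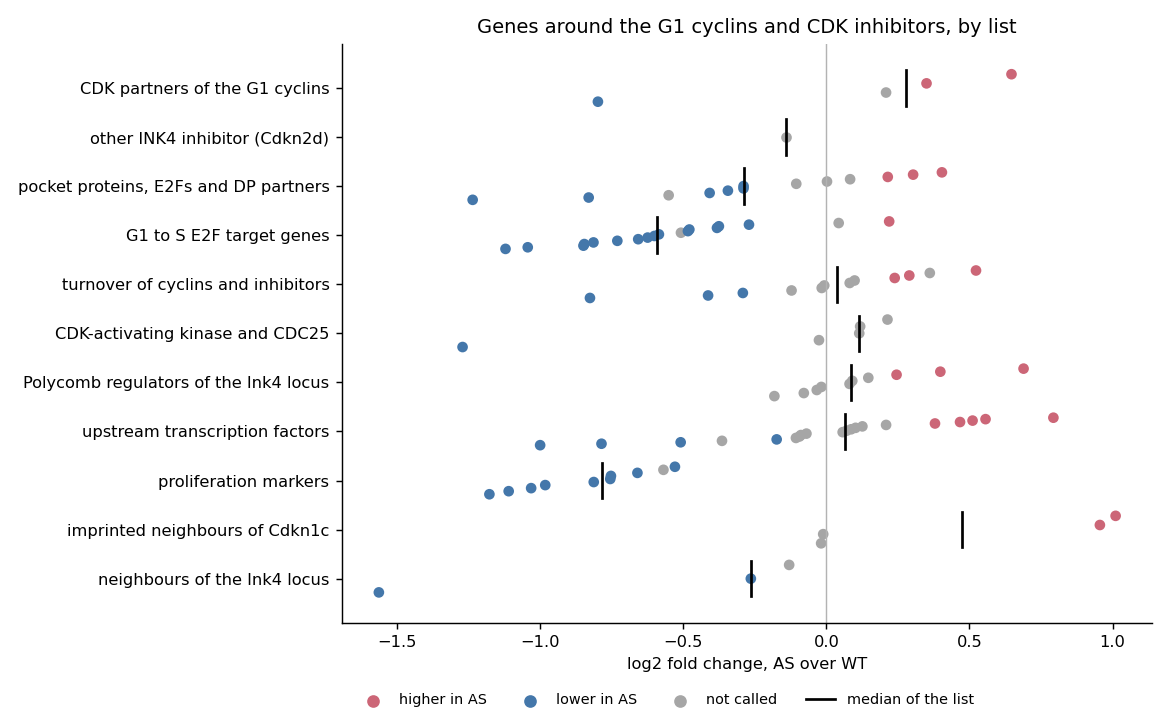
Log2 fold change of AS over WT (x axis) for the tested genes of 11 lists around the G1 cyclins and CDK inhibitors, coloured by their call in edgeR, with a black tick for the median of each list. The E2F targets and the proliferation markers lie mostly below 0, with medians of -0.59 and -0.78.

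The genes whose pattern over the 6 samples was most like that of Ccne2 and of Cdkn1c were found by Pearson's r of log2 CPM among 12771 genes with a mean of at least 1 CPM. For Ccne2 they were Depdc1b (r = 0.996), Ccne1 (0.994) and Foxm1 (0.994), and 11.7% of the genes compared had an r above 0.9. For Cdkn1c they were Ide (0.994), Arid3a (0.992) and Derl1 (0.983), and 3.20% had an r above 0.9. These values describe 6 samples that share the split into 2 lines.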

How the data were processed

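Gene counts from 6 podocyte RNA-seq libraries, 3 WT and 3 AS, were used. The authors deposited raw counts of reads per gene and sample. The submitters' processing notes name build mm39 and the tools FastQC, Trim Galore, STAR and edgeR, while counting tool, annotation and strand setting were not given in the sources at hand. Of 57132 identifiers, 51880 were matched without version to GENCODE M21 (GRCm38), used for names, chromosomes, gene order and exon lengths. Counts were filtered with filterByExpr (minimum count 10, minimum total 15), scaled by TMM and tested with edgeR 4.0.16 in R 4.3.3, by quasi-likelihood with no term but genotype and Benjamini-Hochberg adjustment over all genes tested. The standard error is the log2 fold change over the root of F. Level per kb is CPM over the union of exons. This length exceeds the longest transcript for most genes, for example 8775 against 3858 bases for Ccnd3. Fits were tested on simulated data. Alternatives were RLE size factors, library size only, DESeq2 1.42.0, limma-voom 3.58.1 (the paper's method), other filters, a replicate block, each sample left out and the chromosome median removed.

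The 10 genes and all lists were chosen with earlier results of these data known. Genes named are the 10, Col4a3, the 3 genes per list of lowest adjusted p, list genes below the filter, 2 tested protein-coding neighbours on each side and the 3 most alike. Other list genes named, among them Cdk6, Rb1, Aurka, Mcm7, Rbl2, E2f4, Tfdp1, Cd81 and Dtl, were chosen after their values were seen. Skp1 was not matched by symbol. Some items that this rule covers are not reported here. No protein sequences were used here. Groups of 3 were not tested for outlying samples.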

Additional observations from a re-analysis of the deposited data

How the results depend on the processing

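The count of 8 genes called held in the fits with RLE size factors, library size only, DESeq2, limma-voom, either other filter and the replicate block, and was 6 to 8 when samples were left out in turn. The number called higher ran from 2 to 4. The replicate block called 7066 genes in all against 6517, and 8 of the 10. The labels call the numbered samples of each line sets, without saying what a set shares. Same-numbered samples deviated together only weakly, with correlations of 0.147, 0.0939 and 0.0526. Samples of different number gave -0.13 to 0.0571. The numbers were not taken as pairs, and whether same-numbered samples share a batch is not known. Of 140 values of single genes, 5 lost the call, 2 were reversed, 3 moved with the chromosome median removed (Ccnd2 to -0.28, Cdkn1b to 0.56 and Cdkn2a to 0.39) and 130 did none of these. Values with the chromosome median removed have no test. With 1 sample fewer, the log2 change of Ccnd1 ran from -0.10 to 0.32 and that of Cdkn1a from -0.074 to 0.0012. In those fits calls ran from 10 to 16 for the E2F targets (17 with DESeq2), from 2 to 5 for the Polycomb list, from 1 to 2 for the CDK-activating kinase and CDC25 list (2 with library size only) and from 1 to 2 for the neighbours of the Ink4 locus (1 with a mean CPM of at least 1). Without length scaling, the difference in share was -0.170 points for Ccnd3, 1.17 for Cdkn1b and -2.75 for Cdkn2c. With the longest transcript as length it was -0.724 for Cdkn1a and 0.563 for Cdkn1b. The causes were not tested. Depth limits Cdkn1c, with 24 counts in its lowest library.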

Other observations

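Proteins that degrade G1 cyclins and CDK inhibitors were a further group of genes around this step. Of 13 genes listed, 12 were matched and tested, 3 rose, 3 fell and 6 did not pass, with a median log2 fold change of 0.04. Over all genes tested 20.4% rose and 19.6% fell, so that these counts are close to the background. Fbxo31, a ubiquitin ligase subunit that acts on cyclin D1, was at 20.0, 18.2 and 19.6 CPM in WT and 27.0, 28.6 and 27.6 CPM in AS samples, a log2 fold change of 0.52 (adjusted p = 0.000328, edgeR). It lies on chromosome 8, whose tested genes had a median of 0.31. Dtl, a substrate receptor that directs p21 to degradation in S phase, fell with a log2 fold change of -0.83 (adjusted p = 0.00204, edgeR). Of the ligase that Dtl serves, the scaffold gene Cul4b fell, at -0.29 (adjusted p = 0.00127, edgeR), whereas its paralog Cul4a rose, at 0.29 (adjusted p = 0.00214, edgeR), as did the adaptor gene Ddb1, at 0.24 (adjusted p = 0.0298, edgeR; both chosen after their values were seen). Cul4a lies on chromosome 8 and Ddb1 on chromosome 19, with a median of 0.19. Skp2, the receptor that directs p27 to degradation, had a log2 fold change of -0.02 (adjusted p = 0.950, edgeR; chosen after its value was seen), while Cks1b, its cofactor, fell by 0.41 on the log2 scale (adjusted p = 0.00204, edgeR).

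The kinase that activates CDKs and the phosphatase genes Cdc25b and Cdc25c, whose products remove inhibitory phosphates, made up a list of 5 genes. Cdc25c, which acts at entry into mitosis, fell with a log2 fold change of -1.27 (adjusted p = 0.00751, edgeR), and the other 4 did not pass. The share called over all genes tested was 40.1%. Ccnh (0.21, adjusted p = 0.0616, edgeR) and Cdk7 (0.12, adjusted p = 0.169, edgeR) are both part of the activating kinase. Cdc25a was listed among the E2F targets instead and did not pass, at 0.04 (adjusted p = 0.773, edgeR; chosen after its value was seen).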
